A study of Homo sapiens with 9 samples.

Results

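The resting state of the established human neuroblastoma line LAN-5 was described from the 3 arrays of untreated cells among the 9 arrays of the series. These arrays were chosen by their sample titles alone, and no measured value entered the choice. Of the 8793 probe sets in the table, the 47 manufacturer's control probe sets were set aside and the other 8746 were ranked by their mean log2 level over the untreated arrays. The series compared untreated cells with cells given the protein S100B at 0.5 nM or at 5 µM, with 3 arrays for each condition, and its text describes the arrays of a condition as biological replicates. All groups were the same line, plated at 60000 cells per cm2 and grown in DMEM to 80% confluence, and the labels name no genetic change in any of them. How long the cells were treated, and whether the untreated ones received a vehicle, is not given in the sources used here. A single line was studied, so the spread between arrays is that between cultures of one line and not between tumours.

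Neuroblastoma is a childhood tumour of the sympathoadrenal lineage, which arises from the neural crest and forms sympathetic neurons and the chromaffin cells of the adrenal medulla. Cells of this lineage make noradrenaline from tyrosine in steps: tyrosine hydroxylase (TH) makes DOPA, aromatic amino acid decarboxylase (DDC) makes dopamine, and dopamine beta-hydroxylase (DBH) makes noradrenaline, which is stored in granules with chromogranin A (CHGA). Amplification of the transcription factor gene MYCN marks an aggressive form of the tumour, and LAN-5 is known as a line that carries it.

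A level here is the log2 signal of a probe set, and a difference of 1 between arrays is a doubling. Probe sets hybridise with different efficiency, so a rank orders signal and not transcript number. For each gene the probe set with the highest untreated mean was taken, which gave 7713 genes named by a probe set with a single symbol. A gene was called high if its probe set was in the top 10% (874 probe sets, mean of at least 9.78) and dim if it was in the lowest 33.3% (2915 probe sets, mean of at most 5.96). Dim means low signal, and no call of presence or absence was made. As a yardstick, 114 genes typical of unrelated organs, such as the albumin gene ALB at 4.72 and the skin keratin gene KRT10 at 8.34, had a median level of 5.74, with 95% of them at or below 7.20. Of these genes 73 were dim and 0 were high, against 33.3% dim and 9.57% high over all 7713 genes.

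The untreated arrays were alike in scale, which the submitters' normalisation between arrays is meant to bring about. Their medians lay between 6.62 and 6.64, against 6.60 to 6.64 over all 9 arrays, and values over all arrays ran from 4.37 to 14.5. The mean of the hybridisation control probe sets was between 8.70 and 9.25 on the untreated arrays, lowest on replicate 1, and between 9.04 and 9.45 on the treated ones. The difference between the 3′ and 5′ control probe sets of GAPDH, a sign of RNA integrity, was between 0.226 and 0.299 on the untreated arrays.

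The label of a noradrenergic neuroblastoma cell was set against its markers first. CHGA, which codes for the main soluble protein of catecholamine granules, had levels of 12.35, 12.02 and 12.41 on untreated replicates 1, 2 and 3. Its mean of 12.26 ± 0.21 (SD, n = 3) put it at rank 114. DBH had levels of 10.44, 10.11 and 10.62, a mean of 10.39 ± 0.26 (SD, n = 3) and rank 563. Both genes were high on every untreated array and lay above every gene of the unrelated organs. MYCN had levels of 7.87, 7.73 and 7.90, with a mean of 7.83 ± 0.09 (SD, n = 3) and rank 2634, which is neither high nor dim. The pulmonary surfactant gene SFTPC at 7.94 and the beta-globin gene HBB at 7.94 had higher signal on their own probe sets, so the MYCN signal was not set apart from the upper tail of the unrelated genes. HAND2, a transcription factor of the lineage, had a level of 6.76 and was neither high nor dim. TH gave 5.48, 5.57 and 5.60 and was dim at rank 6844.

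**Figure D1:**
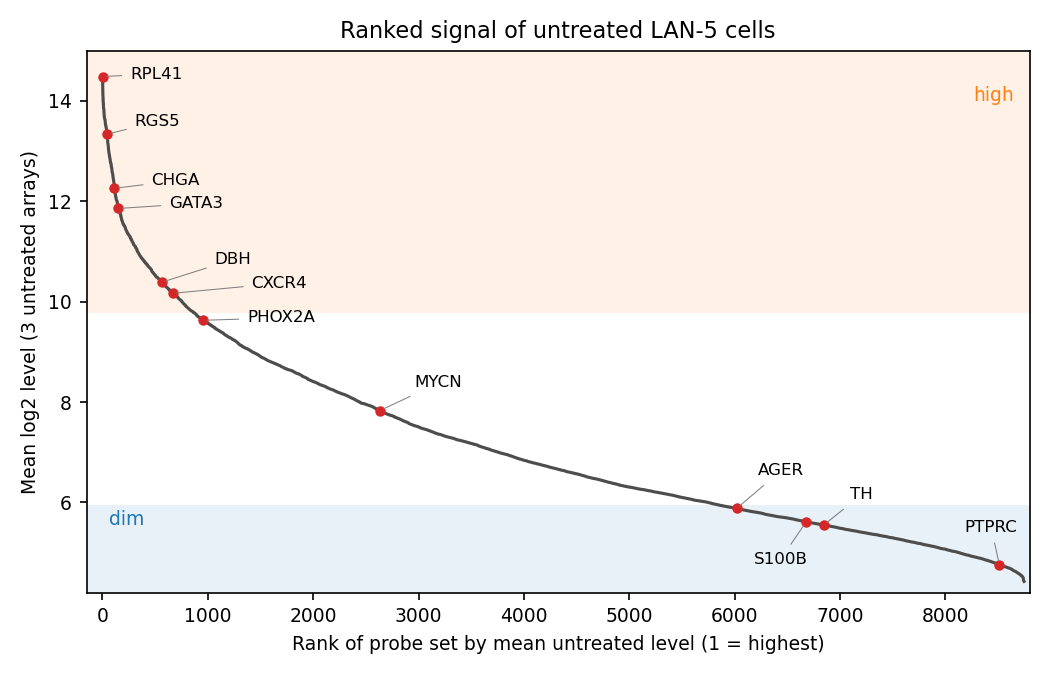
Mean log2 level over the 3 untreated arrays (vertical axis) against the rank of all 8746 probe sets (horizontal axis), with the high range shaded orange, the dim range shaded blue and named genes as red points. The curve falls steeply from RPL41 at 14.49, CHGA and DBH sit in the high range, MYCN lies on the slope at 7.83, and TH, AGER and S100B lie in the dim range.

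The promoters of the 3 marker genes are shown because the markers ranked so differently: CHGA and DBH were high and MYCN was not. The sequences are the 250 bases before each gene's RefSeq start in GRCh38.p14, on the plus strand: chr14:92922900-92923149 for CHGA, chr9:133636113-133636362 for DBH and chr2:15940300-15940549 for MYCN. Capitals mark matches to 4 motifs searched on both strands and chosen with these sequences in view: the cAMP response element TGACGTCA, its core TGACGT (which every TGACGTCA also holds), the TATA box TATAAA and the E-box CACGTG, the sequence that MYC family proteins bind.
CHGA: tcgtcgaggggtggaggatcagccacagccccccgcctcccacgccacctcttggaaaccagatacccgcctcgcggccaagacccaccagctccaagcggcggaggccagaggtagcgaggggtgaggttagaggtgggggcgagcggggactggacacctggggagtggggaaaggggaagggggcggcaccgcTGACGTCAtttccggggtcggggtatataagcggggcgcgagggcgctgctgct
DBH: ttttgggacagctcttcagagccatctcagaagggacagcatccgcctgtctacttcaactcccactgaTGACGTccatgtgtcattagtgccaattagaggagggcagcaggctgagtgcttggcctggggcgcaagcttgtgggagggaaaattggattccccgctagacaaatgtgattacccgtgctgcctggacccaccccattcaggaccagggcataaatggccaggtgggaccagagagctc
MYCN: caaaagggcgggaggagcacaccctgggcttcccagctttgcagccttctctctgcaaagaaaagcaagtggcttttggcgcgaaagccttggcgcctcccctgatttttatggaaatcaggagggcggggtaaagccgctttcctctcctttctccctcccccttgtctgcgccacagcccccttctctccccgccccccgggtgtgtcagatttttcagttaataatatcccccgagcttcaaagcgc
The CHGA window held the whole element TGACGTCA, starting 54 bases before the gene start, and 21 CpG dinucleotides at 68.8% GC. The DBH window held the core TGACGT, starting 181 bases before the start, and 5 CpG dinucleotides at 55.6% GC. None of these letters was found in the MYCN window, which had 11 CpG dinucleotides at 57.2% GC. Among all 35116 RefSeq promoter windows, the same 250 bases held TGACGTCA in 1.65%, TGACGT in 7.10%, TATAAA in 10.7% and CACGTG in 6.34%. A match is a description of the letters and was not tested for binding or use.

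Enzymes of catecholamine synthesis were spread over the whole range of signal. Of 16 measured genes of synthesis and handling, 4 were high and 2 were dim, and the median level was 7.46 against 6.64 over all genes. The highest was GCH1, the first enzyme in making the tetrahydrobiopterin that TH needs, with levels of 11.56, 11.57 and 11.50. DDC, the decarboxylase, followed with levels of 10.57, 10.27 and 10.33. The DDC and DBH values overlapped between arrays, so their order at ranks 562 and 563 lies within the spread. QDPR, which recycles the same cofactor, was high at 9.82 ± 0.02 (SD, n = 3), and PTS and PCBD1, also of the cofactor pathway, were at 9.49 and 9.09. PNMT, which turns noradrenaline into adrenaline, was at 6.39. The noradrenaline transporter SLC6A2 was at 7.04, and the vesicular transporters were at 6.43 for SLC18A1 and at 5.04 for SLC18A2, which was dim. The cofactor enzymes, DDC and DBH gave high or upper-middle signal. Of the 16 genes 9 lay above 7.20, the level that bounds 95% of the unrelated genes. SLC6A2, SLC18A1, PNMT, TH and SLC18A2 were among those below it.

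Transcription factors and regulators of the noradrenergic state gave strong signal as a list. Of 25 measured genes, 9 were high and 2 dim, with a median level of 9.35, and 18 lay above 7.20, the level that bounds 95% of the unrelated genes. Over all genes, 39.6% lay above that level. DLK1, a membrane protein related to Notch ligands that was placed in this list, was at 12.24 ± 0.11 (SD, n = 3). GATA3, a zinc finger factor needed for sympathetic neurons, gave 11.80, 11.81 and 11.96. ISL1, a LIM homeodomain factor of sympathetic neurons, gave 11.42, 11.43 and 11.43, one of the tightest sets of values in the list. MEIS2 was at 11.51, SOX11 at 10.56 and SOX4 at 10.45. The SOX11 and SOX4 arrays overlapped. GATA2 at 10.05, TFAP2B at 10.01 and SATB1 at 9.86 completed the high genes. HAND1 at 9.72 and PHOX2A, the paired-like homeodomain factor that acts on the DBH gene, at 9.63 lay just under the bound of 9.78. At the low end INSM1 was at 5.27 and NHLH2 at 4.93, both dim. In bulk RNA such as this, fewer cells of a type and less RNA per cell cannot be told apart.

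**Figure D2:**
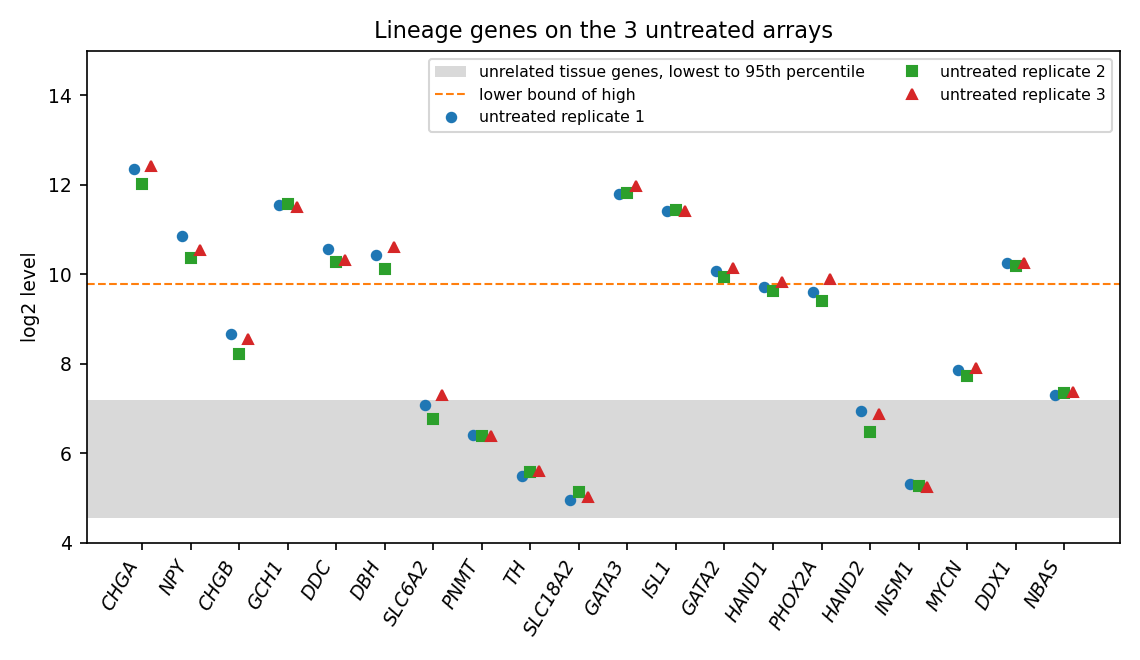
log2 level of 20 lineage genes (horizontal axis) on each of the 3 untreated arrays (blue circles, green squares and red triangles for replicates 1, 2 and 3), with the lowest value to the 95th percentile of the unrelated organ genes in grey and the lower bound of high as a dashed line. CHGA, NPY, GCH1, DDC, DBH, GATA3, ISL1, GATA2 and DDX1 lie above the dashed line on all 3 arrays. TH, SLC18A2 and INSM1 lie in the grey band, as do SLC6A2, PNMT and HAND2 by their means.

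Few genes of the secretory side were high, a share not far from that over all genes. Of 29 granins, neuropeptides and processing enzymes, 2 were high (6.90%) and 13 dim (44.8%), with a median of 6.17. Over all genes 9.57% were high and 33.3% dim, with a median of 6.64. CHGA was the higher of the pair and NPY, the sympathetic cotransmitter neuropeptide Y, was the other, with levels of 10.85, 10.36 and 10.53. TAC3, which codes for neurokinin B, was at 8.79 ± 0.00 (SD, n = 3), the granin-like VGF at 8.71 and the second chromogranin CHGB at 8.48. The peptide genes VIP at 4.67, TAC1 at 4.67 and CRH at 5.03 were the dimmest. For acetylcholine, the other sympathetic transmitter, 1 of 22 genes was high and 9 were dim. The high gene was CHRNA3, the nicotinic receptor subunit of autonomic ganglia, with levels of 10.51, 10.57 and 10.61. The acetylcholine-synthesising enzyme CHAT was dim at 5.95, beside the dim bound of 5.96, and the choline transporter SLC5A7 was dim at 5.64.

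Genes around MYCN and of the MYC network had a median level of 9.45, with 5 of 12 high and 1 dim. The highest was the nucleoside diphosphate kinase gene NME1, with levels of 12.09, 11.91 and 12.01. It was followed by ODC1, the first enzyme of polyamine synthesis and a known target of MYC proteins, with levels of 11.77, 11.77 and 11.83. DDX1, an RNA helicase gene, gave 10.25, 10.18 and 10.25. NBAS, a gene of vesicle traffic, was at 7.34. With MYCN these genes follow one another on chromosome 2 in the RefSeq annotation, with 0 other protein-coding genes between MYCN and DDX1 or between DDX1 and NBAS. These neighbours gave signal at ranks far apart, with DDX1 at 638, MYCN at 2634 and NBAS lower still, each on its own probe set. MYC itself was at 9.62 ± 0.08 (SD, n = 3), just under the bound of high.

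At the very top of the ranking stood the machinery of protein synthesis. Of the 50 highest probe sets, 33 named a single gene, 11 named several and 6 had no entry in the annotation. Ribosomal proteins accounted for 25 of the 33, from 24 genes. The list of translation factors accounted for 3 more, namely EEF1A1, EEF2 and TPT1, a translationally controlled protein that was placed in that list. The remaining 5 of the 33 were the glycolytic enzyme GAPDH, the actin-severing protein CFL1, the ubiquitin gene UBB, the alpha-tubulin gene TUBA1A and RGS5, a regulator of G protein signalling. With only named genes ranked, 1 probe set each, 38 of the 50 highest were ribosomal. RPL41, a ribosomal protein of the large subunit, was first with levels of 14.49, 14.50 and 14.47. EEF1A1, which brings tRNA to the ribosome, was next with 14.37, 14.34 and 14.27. The 25 highest genes ran from there through RPL37A, RPS18, RPS4X, GAPDH, RPL32, RPS23, RPLP1, RPS15, RPS14, RPL39, RPS10, RPL37, RPS27, RPS24, RPL8, RPL7, RPL30, CFL1, RPS21, RPS7, EEF2 and RPS19 to UBB at 13.42. In 18 of the 24 neighbouring pairs among them the arrays overlapped, so most single steps in this order lie within the spread. Of the 50 probe sets 16 were of the manufacturer's x type and 25 of its s type, whose probes can match several transcripts, and many ribosomal protein genes have processed pseudogenes. The level of a single ribosomal gene is therefore uncertain.

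The pattern held over the wider lists of basic cell functions. In 9 lists together (ribosome, translation, cytoskeleton, glycolysis, oxidative phosphorylation, chaperones, chromatin proteins, proteasome and splicing) 214 of 287 genes were high, or 74.6%, and 4 were dim, or 1.39%. Among ribosomal proteins 46 of 50 were high, and the 4 others were RPS27L at 8.99, RPL31 at 7.91, RPL38 at 6.88 and RPL3L, a muscle form, at 6.41. Of 29 proteasome and ubiquitin genes 24 were high and 0 dim. Of 16 glycolytic genes 11 were high, led after GAPDH by LDHB at 12.74 and ENO1 at 12.11, and HK2 was lowest at 6.17. Of 57 genes of oxidative phosphorylation 38 were high, led by COX6A1, a cytochrome oxidase subunit, at 12.67. Among 25 chaperones the mitochondrial chaperonin HSPD1 led at 12.63. The 4 dim genes were HNRNPA1 at 4.75, HMGA2 at 5.41, ATP5F1C at 5.44 and EIF4E at 5.83. HNRNPA1, ATP5F1C and EIF4E belong to machinery that every cell uses, so a dim probe set does not show that its gene is silent. The 122 genes with more than 1 probe set give the same caution, since their highest and lowest probe sets differed by a median of 0.936 and by more than 1 in 58 genes (47.5%). The widest gap was 6.19, for NACA, a ribosome-associated protein, whose probe sets were at 12.32 and 6.13.

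**Figure D3:**
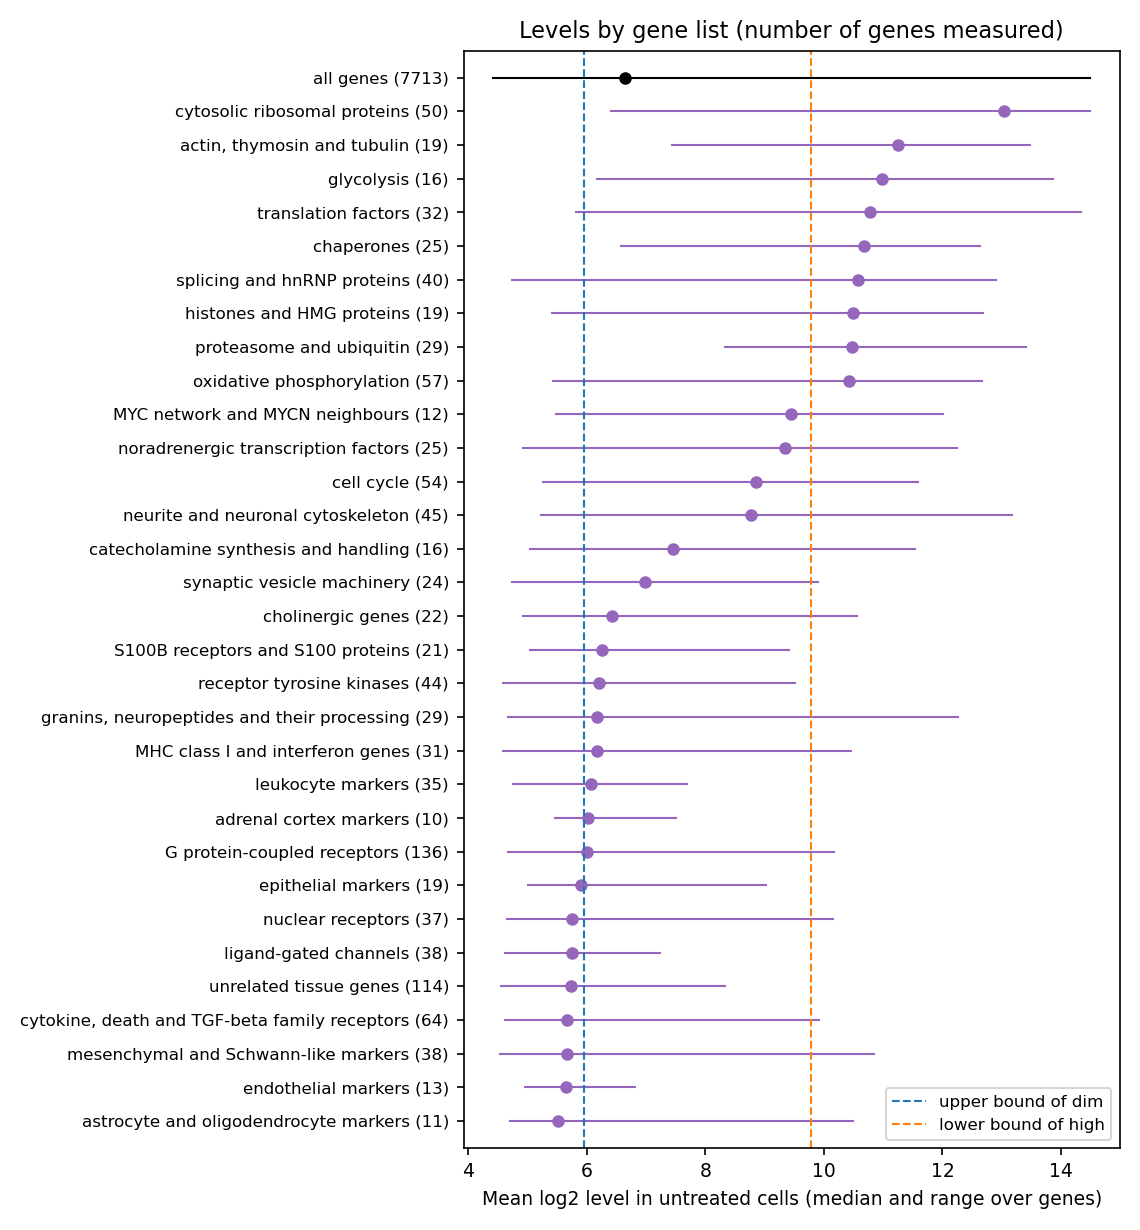
Median (point) and full range (line) of the untreated log2 level over the measured genes of each list, with all 7713 genes in black at the top and the bounds of dim and high as dashed lines. The medians of the basic cell functions lie above the bound of high, from 10.43 for oxidative phosphorylation to 13.04 for ribosomal proteins, and those of the receptor lists lie near or below the bound of dim.

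Genes of proliferation and of the neuronal cytoskeleton also had medians above that of all genes, which was 6.64. Of 54 cell cycle genes 16 were high and 5 dim, with a median of 8.86. The nucleotide-synthesis enzymes RRM2 at 11.59 and TYMS at 11.58 led, followed by PCNA, the replication clamp, at 11.50 and by CDK4, the kinase of cyclin D, at 11.22. Cyclin D1 (CCND1) was high at 10.05, cyclin D2 (CCND2) was dim at 5.27, and CDKN2A, which codes for an inhibitor of CDK4, was dim at 5.57. Of 45 genes of neurites and the neuronal cytoskeleton 18 were high and 3 dim, and 35 lay above 7.20. TUBA1A led at 13.17 ± 0.01 (SD, n = 3). The microtubule regulator STMN2 was at 12.15, the neuronal ubiquitin hydrolase UCHL1 at 12.03 and the neuronal beta-tubulin TUBB3 at 11.74. DCX, of migrating young neurons, was at 10.58. Synaptic vesicle genes gave less signal, with 1 of 24 high, 6 dim and a median of 6.98. The high one was SNAP25, a SNARE protein of exocytosis, at 9.90 on each of the 3 arrays.

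Receptors gave low signal as a class. In 5 receptor lists together 3 of 319 genes were high, or 0.940%, and 166 were dim, or 52.0%, against 9.57% and 33.3% over all genes. The receptor tyrosine kinases held 0 high and 18 dim genes of 44. PDGFRA, a receptor of platelet-derived growth factor, was their highest at 9.52 ± 0.07 (SD, n = 3), followed by the collagen receptor DDR2 at 8.56. FGFR1 was at 8.02. RET, the receptor subunit for GDNF family ligands, was dim at 5.64, as were the neurotrophin-3 receptor NTRK3 at 5.78, MET at 5.32 and EPHA3, the lowest, at 4.60. Among 136 G protein-coupled receptors 1 was high and 65 were dim. CXCR4, the receptor of the chemokine CXCL12, was the high one with levels of 10.18, 10.20 and 10.12. The latrophilin ADGRL2 was at 9.03 and the Wnt receptor FZD2 at 8.19. CHRM3, the M3 muscarinic receptor, was at 7.37. The adrenergic receptors in the list ran from ADRA2B at 6.78 to ADRA1B at 5.10, within the range of the unrelated genes, and NPY1R, a receptor of neuropeptide Y, was dim at 4.73.

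Of 64 cytokine, death and TGF-beta family receptors 1 was high and 40 were dim, with a median level of 5.66. The high one was the erythropoietin receptor EPOR at 9.92, but its other probe set was at 5.41, so the signal rests on 1 of its probe sets. CD40 was at 8.73 and IFNGR2, a subunit of the interferon gamma receptor, at 8.60. The death receptor FAS at 5.29, the low-affinity neurotrophin receptor NGFR at 5.26, TGFBR2 at 5.67 and LIFR at 4.63 were dim. Of 37 nuclear receptors 1 was high and 20 were dim. The orphan receptor ESRRG was high at 10.16 ± 0.10 (SD, n = 3), and the thyroid hormone receptor THRB was at 8.88. The glucocorticoid receptor NR3C1 at 5.24 and the oestrogen receptor ESR1 at 5.08 were dim. The ligand-gated channels for glutamate, GABA, glycine, serotonin and ATP had 0 high and 23 dim genes of 38, and their highest was the kainate receptor GRIK2 at 7.24.

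S100B itself, the protein given to the treated cells, and AGER, its best known receptor, were both dim in untreated cells. S100B, a calcium-binding protein of glia, gave 5.56, 5.73 and 5.56. AGER, also called RAGE, gave 5.93, 5.88 and 5.84. Both lie within the range of the unrelated genes on every array, and a dim signal does not show that they are silent. The list of 21 S100 proteins and reported S100B partners held 0 high and 8 dim genes. ALCAM, an adhesion molecule related to AGER, was its highest with levels of 9.62, 9.31 and 9.30. DIAPH1, a formin that binds the inner part of AGER, was at 8.32 ± 0.01 (SD, n = 3), and S100A6 was at 8.66. The pattern-recognition receptor TLR4 was dim at 5.05.

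Lists of markers of other cell types that a culture could hold had medians below the 6.64 of all genes, with some high members. Over all genes 33.3% were dim and 9.57% were high. Of 38 mesenchymal and Schwann-like markers 25 were dim and 3 were high. The high ones were the intermediate filament gene VIM at 10.85, the galectin LGALS1 at 10.54 and TWIST1, a transcription factor of mesenchyme, with levels of 10.30, 10.47 and 10.46. The collagen gene COL3A1 at 4.63, the matrix gene THBS1 at 4.54, the Hippo effector YAP1 at 4.81 and the adhesion receptor CD44 at 5.78 were dim. Of 35 leukocyte markers 0 were high and 14 were dim, including the pan-leukocyte gene PTPRC at 4.76. That is 40% dim, near the share over all genes. The highest were CORO1A at 7.69 and CD4 at 7.69. Of 19 epithelial markers 0 were high and 10 were dim, including CDH1 at 5.15 and EPCAM at 5.01, while SFN was at 9.02. Of 13 endothelial markers 10 were dim and CDH5 was at 4.95. Of 11 astrocyte and oligodendrocyte markers 7 were dim, including GFAP at 5.50, and the glutamine synthetase gene GLUL was high at 10.50. Of 10 adrenal cortex markers 5 were dim, and the highest was the ACTH receptor MC2R at 7.51. Among 31 MHC class I and interferon genes B2M, the MHC class I light chain, was high at 10.46 and HLA-B was at 6.92. In this list 13 were dim, such as GBP1 at 4.58, or 41.9%, also near the share over all genes. The mean level of each marker list stayed in a narrow band between arrays, for example 6.09 to 6.13 on the untreated arrays and 6.06 to 6.07 at 5 µM for the mesenchymal list, and 6.11 to 6.18 and 6.08 to 6.16 for the leukocyte list.

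The 3 untreated arrays agreed closely. Pairs of them correlated over the 8746 probe sets with Pearson's r between 0.9978 and 0.9983, a description across probe sets, which are not independent replicates. The median SD of a probe set was 0.0554, which corresponds to 3.91% of its signal. It was lowest at 0.0409 among the dim probe sets, 0.0601 in the middle of the ranking and 0.0700 in the upper range. The values of a probe set spanned more than 1 in 0 cases and more than 0.5 in 59 cases, or 0.675%. CHGA and DBH varied more than most, with SDs of 0.21 and 0.26 against a median of 0.0638 among the high probe sets. Both were lowest on replicate 2, as were NPY and CHGB. Above the dim range, replicate 2 was lowest for 8 of 16 granin and neuropeptide genes and for 7 of 14 catecholamine genes. The share over all genes above the dim range was 32.0%, and among chaperones it was 68%, so this was not particular to secretory genes.

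**Figure D4:**
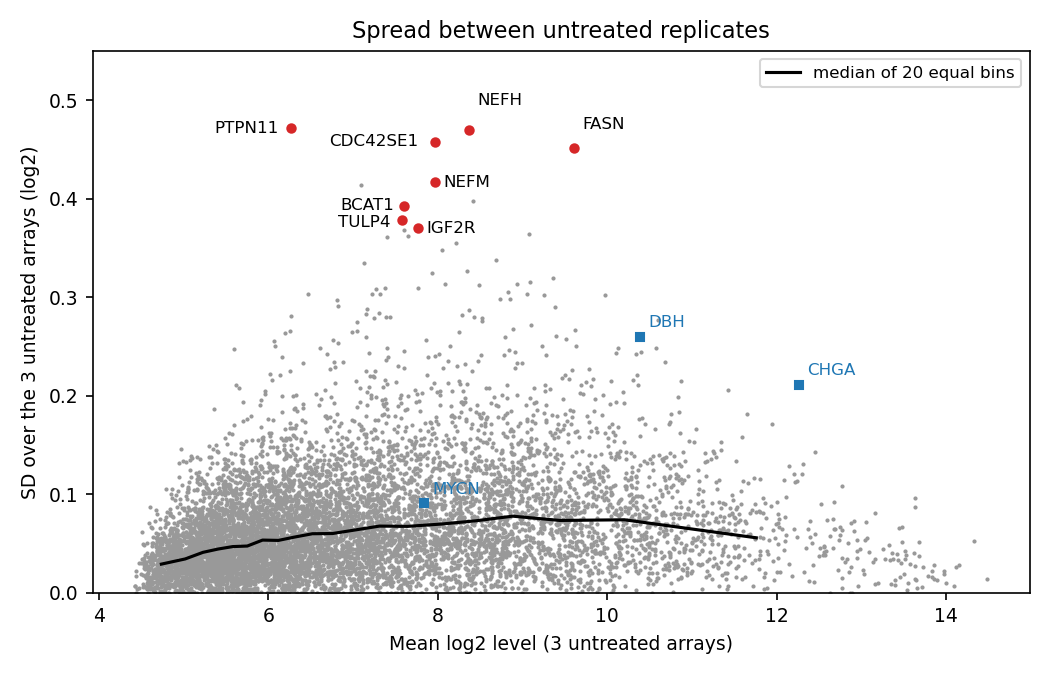
SD over the 3 untreated arrays (vertical axis) against the mean log2 level (horizontal axis) for each probe set (grey), with the median of bins in black, the 8 most variable genes in red and CHGA, DBH and MYCN in blue. The SDs of the red genes reach 0.47 for PTPN11 and NEFH, far above the black line, and CHGA and DBH also lie above it.

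The genes that varied most between untreated arrays above the dim range were, by rule, PTPN11, NEFH, CDC42SE1, FASN, NEFM, BCAT1, TULP4 and IGF2R. NEFH, the heavy neurofilament chain, gave 8.88, 7.94 and 8.30. NEFM, the medium chain, gave 8.45, 7.70 and 7.75. Both neurofilament genes were highest on replicate 1, and so was the light chain NEFL, with 9.47, 9.36 and 9.01. FASN, the fatty acid synthase, went another way with 9.36, 9.33 and 10.12, highest on replicate 3. PTPN11, a phosphatase of receptor signalling, gave 6.75, 6.24 and 5.81, again highest on replicate 1. Of the 59 probe sets that spanned more than 0.5, the array farthest from the other two was replicate 1 in 33, replicate 2 in 7 and replicate 3 in 19. Replicate 1 also gave the highest value for 27 of the 29 proteasome and ubiquitin genes (93.1%), against 37.5% of all genes above the dim range. That was the largest such share among the 31 lists. The other lists ran from 0% for epithelial and endothelial markers to 72.2% for histones and HMG proteins. Replicate 1 had the lowest hybridisation control signal too, and the part of this in the differences was not tested.

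The ranking of untreated cells was then set beside the treated cells, which are separate arrays. All 50 of the 50 highest probe sets, with RPL41 first, were also among the 50 highest at 0.5 nM and at 5 µM S100B. Of the 874 high probe sets 859 (98.3%) were high at 0.5 nM and 853 (97.6%) at 5 µM. Of the 2915 dim probe sets 2859 (98.1%) and 2852 (97.8%) were dim at the respective doses. These are counts of position and carry no test.

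Differences from the untreated level were tested with limma over 5831 probe sets on all 9 arrays, with Benjamini-Hochberg adjustment. Both comparisons share the untreated arrays. At 5 µM 17 probe sets were lower and 0 higher at an adjusted p under 0.05, which is 0.292% of those tested, and 399 had an unadjusted p under 0.05. At 0.5 nM limma called 0 probe sets, or 0% of those tested, and 192 had an unadjusted p under 0.05. The count at 5 µM depended on single arrays. It was 4, 7 and 4 without untreated replicate 1, 2 and 3, and 6, 8 and 9 without 5 µM replicate 1, 2 and 3.

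The untreated levels entered each log2 difference and the filter on low signal, which left out most dim probe sets. Where the called probe sets stood in untreated cells is therefore a description and not independent of the calls. Of the 17, 6 were high and 11 in the middle at baseline, with levels between 7.33 and 12.03 and a median of 9.57, against a median of 7.57 over the tested probe sets. A single gene was named by 13 of them. They include enzymes of cholesterol synthesis: FDPS at baseline rank 391, SQLE at 538, IDI1 at 626, MSMO1 at 746, LSS at 877, SC5D at 1002, HSD17B7 at 1146, DHCR7 at 1198 and HMGCS1 at 1500. INSIG1, which controls sterol-regulated transcription, stood at rank 1805. The others were CRABP2, a retinoic acid carrier, at rank 1119, the phosphatase PPEF1 at 2382 and CHRM3 at 3175. The 4 probe sets without a single symbol stood at ranks 131, 550, 919 and 3239. HMGCS1, which makes the precursor of mevalonate, gave 8.82, 8.74 and 9.17 in untreated cells and a mean of 7.76 ± 0.04 (SD, n = 3) at 5 µM. Its log2 difference was -1.14 ± 0.12 (SE), with an adjusted p of 0.00217 by limma. MSMO1, a sterol methyl oxidase, gave 9.92, 10.04 and 10.10 in untreated cells and a mean of 9.13 ± 0.07 (SD, n = 3) at 5 µM, a log2 difference of -0.89 ± 0.09 (SE) with an adjusted p of 0.00217 by limma. Neither moved past the threshold at 0.5 nM, where the log2 differences were 0.04 for HMGCS1 and -0.08 for MSMO1.

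**Figure D5:**
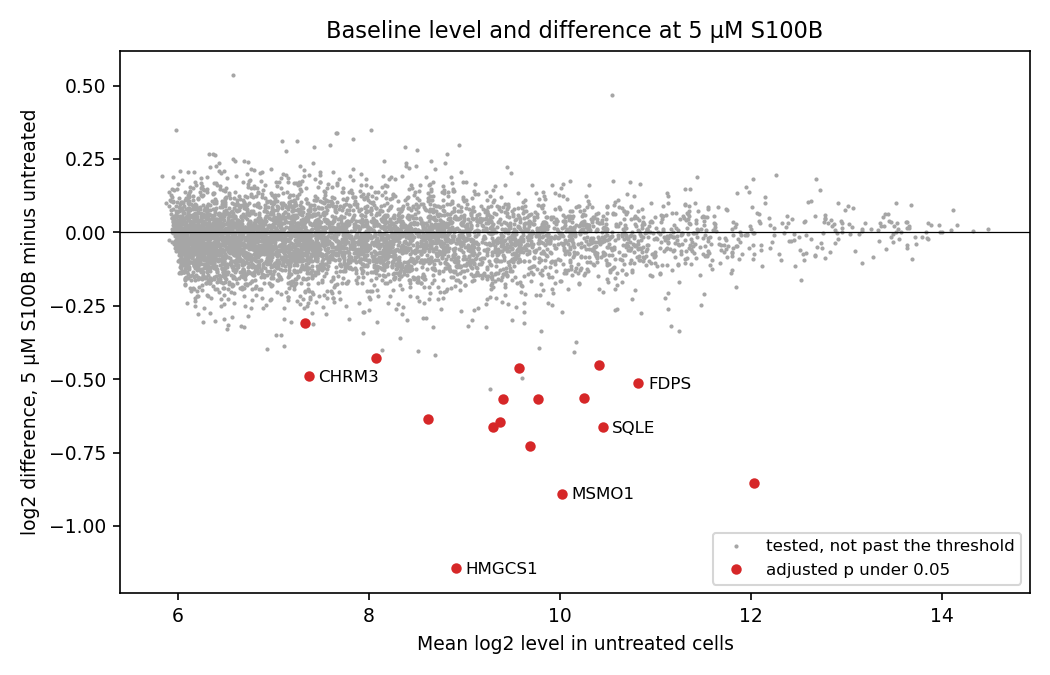
log2 difference of 5 µM S100B minus untreated (vertical axis) against the untreated mean log2 level (horizontal axis) for the 5831 tested probe sets (grey), with the 17 past the adjusted p threshold in red. The red points lie between 7.33 and 12.03 in untreated level, all below 0, with HMGCS1 lowest at -1.14.

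Of the genes in the lists described above, CHRM3 was the only one past the threshold at either dose. CHRM3 gave 7.34, 7.33 and 7.44 in untreated cells and a mean of 6.88 ± 0.06 (SD, n = 3) at 5 µM. Its log2 difference was -0.49 ± 0.07 (SE), with an adjusted p of 0.0228 by limma. The call was lost when any single untreated or 5 µM array was left out, in 6 of 6 such fits. The gene counts in both the cholinergic list, 1 of 13 tested, and the list of G protein-coupled receptors, 1 of 69 tested. In every other list 0 tested members passed at either dose. For the noradrenergic transcription factors the median log2 difference of 23 tested genes was 0.033 at 5 µM and -0.0059 at 0.5 nM, beside -0.024 and -0.016 over all probe sets tested. For the 14 tested catecholamine genes it was -0.0077 at 5 µM and -0.0012 at 0.5 nM. S100B, AGER and TH were below the filter and were not tested.

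Promoters of high and dim genes differed in composition, as a description over the 4386 of 7713 genes with a single RefSeq window of 300 bases (GRCh38.p14). The median number of CpG dinucleotides per window was 27 for 424 high genes, 26 for 2506 middle genes and 14 for 1456 dim genes. TATAAA was found in 7.78% of high, 7.58% of middle and 16.9% of dim windows. The core TGACGT, found near DBH and CHGA above, was in 17.0%, 11.7% and 8.45% in the same order, against 7.98% of all 35116 windows. The E-box CACGTG was in 12%, 9.5% and 7.3%, against 7.3% of all windows. The whole element TGACGTCA did not follow the order of the classes, with 3.54%, 3.71% and 1.99%. These motifs overlap with CpG content, because TGACGT, TGACGTCA and CACGTG each hold a CpG, and their part beyond it was not tested.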

How the data were processed

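RNA from 9 cultures was labelled as biotin cRNA from 5 µg of total RNA and hybridised to Affymetrix 1-colour arrays, per the labels' protocols. The authors deposited 1 log2 value per probe set and array. GCRMA, which corrects background with probe sequence and normalises between arrays, is named per the submitters' processing notes, but its version and settings are not stated there. A log2 scale was inferred from the range of the values. Near the background GCRMA may compress differences. Scanner intensities were not used here, and the number of arrays limits the precision.

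Symbols came from the platform annotation, updated through RefSeq (7838 of 7840 probe sets with 1 symbol matched); 388 probe sets with several symbols and 518 without entry were ranked but not named. Means, SDs and ranks over the untreated arrays were computed in Python 3.11.15. The package limma 3.58.1 (R 4.3.3; lmFit, then eBayes) fitted differences between the 3 groups after leaving out the lowest 33.3% of probe sets by the mean over all 9 arrays, and the fit was tested on simulated data. Named genes were the 25 highest, up to 6 of the highest and 3 of the lowest of each list, the 8 of largest SD above the dim range, those past the threshold, and lineage or receptor genes chosen for a known role. The members and the 31 lists (1364 genes, 1105 measured, 26 in more than 1 list) were chosen with earlier results of these data known. The alternatives were other normalisations, no filter, 1 probe set per gene, leaving out each array, the 2 groups alone and the replicate number as a block.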

Additional observations from a re-analysis of the deposited data

How the results depend on the processing

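The make-up of the top of the ranking held under most settings but moved when only named genes were ranked. Ribosomal probe sets numbered 25 among the 50 highest without each untreated array, after quantile normalisation and with the median in place of the mean, and 38 when 1 probe set per named gene was ranked, which leaves out probe sets with several symbols or none. Of the unrelated organ genes 72 to 75 were dim without each untreated array, and 49 with the lowest 25% called dim. Noradrenergic transcription factors called high numbered 9, or 10 with 1 probe set per gene. The median SD was 0.0544 after quantile normalisation and 0.0413 to 0.0456 between the pairs left when 1 array was dropped.

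The count of probe sets past the threshold at 5 µM by limma was 17. It was 16 each with no filter, after quantile normalisation and after median centring (15 lower and 1 higher in each), 7 when only the 2 groups were fitted, and 4 to 17 when 1 array was left out. At 0.5 nM it was 0 under each of these settings. HMGCS1, MSMO1 and HSD17B7 passed under all 14 alternatives run, CHRM3 under 8, and no called gene changed direction. With the replicate number as a block the counts were 15 and 0. Same-numbered arrays of different groups correlated in their deviations between -0.00032 and 0.329, with 4 of 9 pairs over 0.1, so the numbers were not taken to pair the samples. The replicate 3 arrays did deviate together: their 3 pairs correlated between 0.298 and 0.329. All 12 pairings of a replicate 3 array with another number lay below 0, from -0.367 to -0.0624. Deviations from a group mean sum to 0 within the group, so the positive pairs largely force these negative ones. The negative pairings are therefore not separate evidence. The 3 replicate 3 arrays were the only ones of the 9 that correlated best with their own number in both other groups. That is a hint from the data and not from the design. The values used here carry no background estimate for each probe set. The 12 control probe sets for Bacillus subtilis genes had means between 4.89 and 4.91 on the untreated arrays. The highest of these control values was 5.52. They were not used to set a background level, so how far a probe set stood above background was not assessed.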

Other observations

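Some strong signals in untreated cells fell outside the gene lists, and the families below were chosen after their values were seen. RGS5 and RGS4, which speed the shut-off of G protein signalling, were both high. RGS5 gave 13.30, 13.35 and 13.37 on the 3 untreated arrays, at rank 45, and RGS4 had a mean of 12.06 ± 0.06 (SD, n = 3), at rank 129. The 2 genes are neighbours in the RefSeq annotation, with 0 protein-coding genes between them. Of the 16 RGS genes named by a probe set these 2 were high (12.5%) and 4 were dim (25%). These shares are not far from the 9.57% high and 33.3% dim over all genes. The next RGS gene, RGS2, was at 7.92.

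For the families that follow, the shares over all genes were 9.57% high and 33.3% dim. Among 17 genes of the MAGE family, several of which are silent in most adult tissues outside the testis, 4 were high (23.5%) and 9 dim (52.9%). MAGEA6 was highest at 11.71 ± 0.08 (SD, n = 3) and MAGEA12 was at 10.93, both on probe sets of the x type, which can match related MAGE-A transcripts. MAGEA10 was at 9.64, and MAGEA4 was dim at 4.86. MAGED1, which is widely expressed, was at 11.30. Of 22 HOX genes 0 were high and 13 dim (59.1%). The 4 highest were of the HOXC cluster: HOXC6 at 9.04, HOXC4 at 8.22, HOXC5 at 8.09 and HOXC11 at 8.02. Of 59 genes with symbols of potassium channels, or of genes named after them such as KCNQ1DN, 0 were high and 29 were dim (49.2%). KCNH2, which codes for the hERG channel, was their highest with 9.57, 9.53 and 9.65. Of 8 caspase genes 0 were high and 5 were dim (62.5%), with CASP9 highest at 6.96 and CASP8, an initiator of death receptor signalling, at 5.42. MIF, a cytokine, was at 12.67, and BEX3, a partner of the neurotrophin receptor NGFR, at 12.20.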
